A study of Rattus norvegicus with 8 samples.

Results

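The genes described here encode 6 inhibitors of cyclin-dependent kinases (Cdkn1a, Cdkn1b, Cdkn1c, Cdkn2a, Cdkn2b and Cdkn2c) and 3 further genes of the p53 response (Mdm2, Gadd45a and Ccng1). They were chosen by name, and 16 of the 41012 gene probes on the array carried a RefSeq transcript of 1 of these 9 genes. In all, 18713 probes could be named, for 14400 genes. All rats were males of the inbred strain F344/NSlc, 10 weeks old, and the right kidney was taken. There were 4 sham-operated rats and 4 rats that had lost the other kidney by unilateral nephrectomy, with 1 Cy3-labelled 1-colour Agilent array a rat. Sampling 2 days after the operation is stated for the series, but the source label of the sham rats reads 1 day and that of the nephrectomized rats 2, so a difference of operation and one of a day cannot be told apart.

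Cyclin-dependent kinases drive a cell through its division cycle, and the inhibitors hold them back. The CIP/KIP proteins, encoded by Cdkn1a, Cdkn1b and Cdkn1c, bind kinases that are already joined to a cyclin. The INK4 proteins, encoded by the Cdkn2 genes, bind Cdk4 and Cdk6 and keep them from D-type cyclins. The transcription factor p53 induces Cdkn1a, Ccng1, Gadd45a and Mdm2 after DNA damage or other stress, and the Mdm2 protein in turn marks p53 for breakdown. In the kidney, Cdkn1c is known as a marker of podocytes, the filtration cells that have left the division cycle.

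Of the 9 genes, Cdkn2c alone passed the test, with an adjusted p of 0.0358 (limma, Benjamini-Hochberg, over all 23985 probes tested). It was 1.45-fold higher after nephrectomy. All 4 probes of Cdkn1c gave lower values after nephrectomy, by 0.23 to 0.30 on the log2 scale, and did not pass. Those of Cdkn1a, Cdkn1b, Mdm2, Gadd45a and Ccng1 also did not pass, and Cdkn2a and Cdkn2b lay too close to background to be tested. The call of Cdkn2c was lost in 6 of the 8 fits that left out 1 rat.

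Sequences upstream of the genes are shown because p53 acts on several of them through DNA near their starts. RefSeq (GRCr8) gave 8 of the 9 members a promoter. The motif sought was the p53 decamer, whose pattern is its own reverse complement and which occurs as a pair in a full p53 response element. Only exact matches to RRRCWWGYYY were counted (R is A or G, W is A or T, Y is C or T). An exact match was present in the 250 bases before the start of 4 of these 8 promoters and in 6.64% of all 33469 promoters over the same length. DNA beyond these 250 bases was not searched, and binding of p53 was not tested. The 4 sequences follow, 5′ to 3′ along the gene, with the decamer in capitals.
Cdkn2c, chr5:129644892-129645141, minus strand: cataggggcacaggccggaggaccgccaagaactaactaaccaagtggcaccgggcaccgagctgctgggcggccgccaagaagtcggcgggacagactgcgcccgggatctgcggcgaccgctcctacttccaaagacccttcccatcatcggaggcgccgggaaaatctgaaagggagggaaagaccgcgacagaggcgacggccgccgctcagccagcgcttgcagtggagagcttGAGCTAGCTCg
Cdkn1a, chr20:7150682-7150931, plus strand: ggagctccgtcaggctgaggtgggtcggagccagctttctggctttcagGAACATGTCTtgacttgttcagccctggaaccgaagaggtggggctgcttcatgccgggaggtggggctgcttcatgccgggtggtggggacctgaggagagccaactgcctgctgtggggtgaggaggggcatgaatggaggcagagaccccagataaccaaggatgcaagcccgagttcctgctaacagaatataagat
Gadd45a, chr4:97486800-97487049, minus strand: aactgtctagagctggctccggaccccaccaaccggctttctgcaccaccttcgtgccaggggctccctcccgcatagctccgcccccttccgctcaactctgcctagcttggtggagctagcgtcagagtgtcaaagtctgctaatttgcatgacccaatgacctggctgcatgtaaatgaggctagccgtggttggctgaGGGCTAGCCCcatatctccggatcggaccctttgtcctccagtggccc
Ccng1, chr10:25684877-25685126, minus strand: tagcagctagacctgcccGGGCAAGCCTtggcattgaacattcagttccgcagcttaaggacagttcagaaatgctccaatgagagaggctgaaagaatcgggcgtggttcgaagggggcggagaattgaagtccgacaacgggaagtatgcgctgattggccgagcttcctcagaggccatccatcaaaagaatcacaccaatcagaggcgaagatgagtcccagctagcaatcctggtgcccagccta
The decamer began 11 bases before the RefSeq start of Cdkn2c, 201 before that of Cdkn1a, 48 before that of Gadd45a and 232 before that of Ccng1. None of the 8 held a pair of exact decamers separated by at most 13 bases, which 0.0388% of all promoters did. In Cdkn1a the marked decamer is followed directly by tgacttgttc, which departs from the pattern at 1 base and so was not counted. The GC box GGGCGG, on either strand, was in 7 of the 8 (Cdkn1b, Cdkn2a, Cdkn2b, Cdkn2c, Mdm2, Gadd45a and Ccng1) and in 30.5% of all. CCAAT, on either strand, was in 4 (Cdkn1b, Mdm2, Gadd45a and Ccng1) and in 34% of all. The E2F-type letters TTTGGCGC and TTTCCCGC, on either strand, were in none of the 8 and in 0.412% and 0.813% of all. Thus Cdkn2c, the gene that passed, and 3 genes that did not pass each held 1 exact decamer.

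Levels are given as log2 intensity relative to the array's own 75th percentile over gene probes, so that 0 marks that percentile. They are relative to the other mRNA of the sample. Because whole kidney was measured, fewer cells of a type and less RNA per cell cannot be told apart. Of the gene probes, 54.8% to 65.5% were well above background on an array, and none was saturated. In a principal component analysis the groups differed on component 1 (31.6% of variance), while sham rat 1 lay away from the other 7 arrays on component 2 (21.2%). Each group had 2 rats on each of 2 slides, and each slide was scanned once. In all, 777 probes passed the test, 3.24% of those tested (2.34% higher and 0.901% lower after nephrectomy). The split of 561 higher and 216 lower was 1459 and 1158 with array weights, and 322 and 64 without sham rat 3. Taking the brightest probe of each gene with a symbol, 4.05% passed (2.88% higher and 1.17% lower), and the median log2 difference was -0.01. For the 7 members tested, 1 passed (14.3%) and the median was -0.04.

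The make-up of the samples was checked with 13 lists of markers, for tubule segments, podocytes, vessels, stroma, blood cells and the adrenal gland. None of their 38 tested genes passed. Markers of proximal tubule (5 genes), thick ascending limb (3) and intercalated cells (4) were well above background on all 8 arrays. Nephrectomized and sham arrays had overlapping summed levels for podocyte markers (5.15 to 5.44 against 5.19 to 5.44 on the log2 scale), of which 5 of 5 were well above background on all 8 arrays. The summed levels of the proximal tubule markers did not overlap (8.95 to 9.01 in nephrectomized against 9.02 to 9.07 in sham rats). That difference of sums was not tested. The 3 adrenal markers with a probe (Th, Cyp11b1 and Cyp11b2) were well above background on no array. The neutrophil markers S100a8 and S100a9 had log2 differences of -1.01 and -0.78 and did not pass. The 4 proliferation markers with a probe (Mki67, Birc5, Cdk1 and Ccnb1) all rose, with a median log2 difference of 1.81.

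Cdkn1a encodes the CIP/KIP inhibitor that p53 is best known to induce. Its brighter probe (A_44_P914438) read 1.50, 1.34, 1.14 and 0.76 in sham rats 1 to 4. It read 1.57, 1.34, 1.19 and 1.22 in nephrectomized rats 1 to 4. The groups overlapped, since sham rats 1 and 2 lay within the nephrectomized range and sham rat 4 stood below every other rat. The nephrectomized level was 1.11-fold the sham level, with a 95% interval of 0.861 to 1.42 and an adjusted p of 0.702 (limma). The log2 difference was 0.04 within slide 1 and 0.26 within slide 2. Its sham SD of 0.32 was the largest of any member probe tested. The second probe of Cdkn1a (A_44_P515275) was well above background on 3 of 4 arrays in each group and was not tested, with log2 levels of -4.07 to -3.84 in sham and -4.45 to -3.85 in nephrectomized rats.

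Cdkn1b, the CIP/KIP inhibitor that accumulates in resting cells, also had overlapping groups. Its brighter probe (A_44_P508264) read 1.96, 2.31, 2.24 and 2.22 in sham rats 1 to 4, and 1.79, 2.20, 2.03 and 2.05 in nephrectomized rats 1 to 4. In both groups rat 1 was the lowest. The ratio was 0.892 (95% interval 0.752 to 1.06, adjusted p = 0.499). The other probe (A_43_P11268) lay at 1.43 to 1.82 in sham and 1.50 to 1.78 in nephrectomized rats, a ratio of 0.967 (0.817 to 1.15, adjusted p = 0.874). Its log2 difference of -0.05 changed sign within slide 1 (0.02) and without sham rat 3 (0.0028) or 4 (0.0054), so it has no settled direction.

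Cdkn1c, an imprinted gene of the CIP/KIP family, was measured by 4 probes, all well above background in every rat. The brightest (A_44_P223978) read 4.16, 4.46, 4.28 and 4.38 in sham rats 1 to 4. In nephrectomized rats 1 to 4 it read 3.81, 4.17, 3.97 and 4.14. Nephrectomized rats 1, 3 and 4 lay below every sham rat, and rat 2 lay just above sham rat 1. The ratio was 0.813 (0.692 to 0.956) and the adjusted p 0.178.

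The probe A_44_P374620 of Cdkn1c read 2.25, 2.33, 2.23 and 2.35 in sham rats 1 to 4, and 1.81, 2.15, 1.95 and 2.15 in nephrectomized rats 1 to 4. These groups did not overlap, as was the case for 12.2% of all probes (4.92% with nephrectomized rats below). The ratio was 0.825 (0.718 to 0.948, adjusted p = 0.149). The probe A_44_P374618 lay at 2.21 to 2.37 in sham and 1.86 to 2.17 in nephrectomized rats, again without overlap, with a ratio of 0.844 (0.733 to 0.973, adjusted p = 0.209). The probe A_42_P799390 lay at 3.14 to 3.38 in sham and 2.88 to 3.18 in nephrectomized rats, which overlapped through nephrectomized rat 4, with a ratio of 0.854 (0.748 to 0.976, adjusted p = 0.212). In the 3 probes other than A_42_P799390, nephrectomized rat 1 was the lowest of all rats.

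The 4 probes measure 1 gene in the same 8 rats and are not independent of each other. Their log2 differences were -0.24 to -0.32 within slide 1 and -0.22 to -0.28 within slide 2. Each had an unadjusted p under 0.05 (0.0124 to 0.0255), as did 17.0% of all probes, and none passed after adjustment. The mean of the 4 probes gave a log2 difference of -0.26 (adjusted p = 0.113). Genes of the imprinted cluster around Cdkn1c did not pass either, in 7 of 7 tested. Among them H19, an imprinted non-coding RNA, had the smallest p (log2 difference -0.33, adjusted p = 0.26). Of the 5 podocyte markers 0 passed, and their median log2 difference was 0.04. That of Nphs1, at 1.08, rests on sham rat 3, which read -3.33 where the other sham rats read 1.38 to 1.68 and the nephrectomized rats 1.17 to 1.55.

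**Figure D1:**
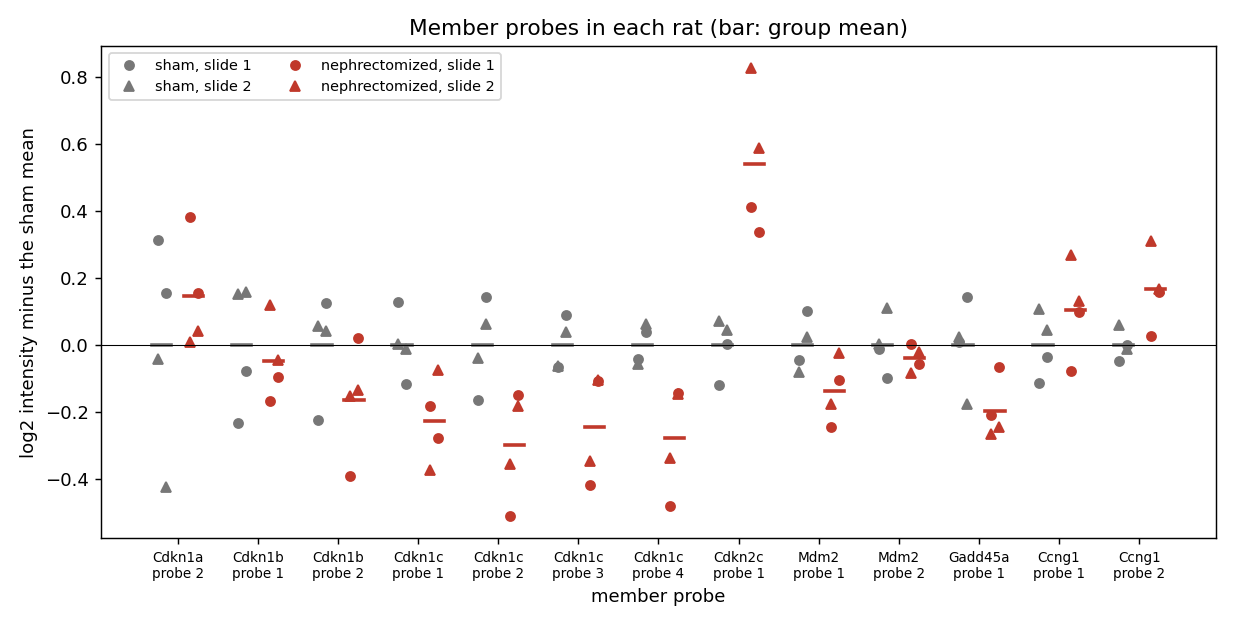
Log2 intensity of the 13 tested member probes in each rat, minus that probe's sham mean (vertical axis, log2 units). Grey points are sham and red points nephrectomized rats, circles slide 1 and triangles slide 2, and short bars are group means. The nephrectomized rats lie above all sham rats for Cdkn2c and below all of them for probes 3 (A_44_P374618) and 4 (A_44_P374620) of Cdkn1c, and the groups overlap for the other 10 probes.

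The INK4 family gave the 1 call. Cdkn2c, which restrains Cdk4 and Cdk6, was measured by the probe A_43_P13144. It read -1.33, -1.20, -1.14 and -1.16 in sham rats 1 to 4, and -0.80, -0.87, -0.38 and -0.62 in nephrectomized rats 1 to 4. Every nephrectomized rat lay above every sham rat, as for 7.26% of all probes, and nephrectomized rat 3 was the highest. The level after nephrectomy was 1.45-fold that after sham operation (95% interval 1.22 to 1.73, log2 difference 0.54, SE 0.11, adjusted p = 0.0358).

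The rise of Cdkn2c was 0.43 on the log2 scale within slide 1 and 0.65 within slide 2, and with slide as a block its adjusted p was 0.0142. Leaving out sham rat 1, the rat that stood apart, gave 0.50 (adjusted p = 0.0735). The call was also lost when nephrectomized rat 1 or 4 or any other sham rat was left out (adjusted p from 0.051 to 0.115), and with dim probes kept in (0.132). It was kept without nephrectomized rat 2 or 3. The summed level of the 4 proliferation markers lay at 2.19 to 2.71 in sham and 3.97 to 4.74 in nephrectomized rats on the log2 scale, and its part in the rise of Cdkn2c was not tested. A test of Cdkn2c against each other member was run but is not reported, since the same values single Cdkn2c out.

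Cdkn2a, whose locus encodes an INK4 inhibitor and the p53 stabiliser Arf, was near background. Its probe (A_44_P395885) exceeded background clearly on 2 of 4 arrays in each group. It read -4.45, -4.47, -4.55 and -4.90 in sham rats 1 to 4, and -4.26, -4.10, -4.92 and -5.23 in nephrectomized rats 1 to 4. The nephrectomized rats spanned the whole sham range, with rats 1 and 2 above and rats 3 and 4 below it, and this split is also that of the slides. Cdkn2b, its neighbour and close relative, was well above background in no rat (A_44_P313507, -7.10 to -6.00 in sham and -7.11 to -6.68 in nephrectomized rats). No fold is given for either gene.

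The family member outside the chosen set that could be tested was Cdkn2d, another INK4 inhibitor. Its probe read -0.60, -0.94, -0.98 and -0.80 in sham rats 1 to 4, and -0.27, -0.29, -0.10 and -0.01 in nephrectomized rats 1 to 4. It was 1.58-fold higher after nephrectomy (1.34 to 1.87, adjusted p = 0.0123), without overlap, and kept its call without any single rat. It lost the call once dim probes were kept in (adjusted p = 0.055) and within each slide alone, where the log2 difference was 0.49 on slide 1 and 0.83 on slide 2. The remaining tested genes of that list, Cdk2ap1, Cdk2ap2 and Cdkn2aip, did not pass.

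Of the p53 targets, Mdm2, the ubiquitin ligase that limits p53, lay close to its sham level. Its brighter probe (A_44_P634946) read 1.40, 1.31, 1.41 and 1.52 in sham rats 1 to 4, and 1.41, 1.35, 1.33 and 1.39 in nephrectomized rats 1 to 4, all within the sham range. The ratio was 0.973 (95% interval 0.881 to 1.08, adjusted p = 0.816). The second probe (A_43_P16885) lay at -1.21 to -1.03 in sham and -1.38 to -1.15 in nephrectomized rats (ratio 0.909, 0.812 to 1.02, adjusted p = 0.39). The log2 difference of the brighter probe was 0.03 within slide 1 and -0.11 within slide 2, so its sign is not settled.

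Gadd45a, a stress sensor that also interacts with the mitotic kinase Cdk1, was lower in most nephrectomized rats without passing. It read 2.87, 3.00, 2.88 and 2.68 in sham rats 1 to 4, and 2.65, 2.79, 2.59 and 2.61 in nephrectomized rats 1 to 4 (A_44_P216395). Nephrectomized rats 1, 3 and 4 lay below every sham rat, and rat 2 above sham rat 4. The ratio was 0.872 (0.765 to 0.995, adjusted p = 0.276), with log2 differences of -0.21 within slide 1 and -0.18 within slide 2. Among the paralogs of Gadd45a and Ccng1, 0 of 4 tested passed. The log2 difference was -0.42 for Gadd45b (adjusted p = 0.178), the smallest p of that list.

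Ccng1, an atypical cyclin and a direct p53 target, had the opposite sign in both of its probes. The brighter (A_44_P235919) read 3.08, 3.16, 3.30 and 3.24 in sham rats 1 to 4, and 3.11, 3.29, 3.46 and 3.32 in nephrectomized rats 1 to 4. The other (A_44_P367761) read 2.82, 2.87, 2.93 and 2.86 in sham and 2.90, 3.03, 3.18 and 3.04 in nephrectomized rats, of which rats 2, 3 and 4 were above every sham rat. The ratios were 1.08 (0.937 to 1.23, adjusted p = 0.606) and 1.12 (1.00 to 1.26, adjusted p = 0.289). In both probes rat 3 was the highest of its group, in sham and nephrectomized rats alike, and both groups had rat 1 lowest.

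**Figure D2:**
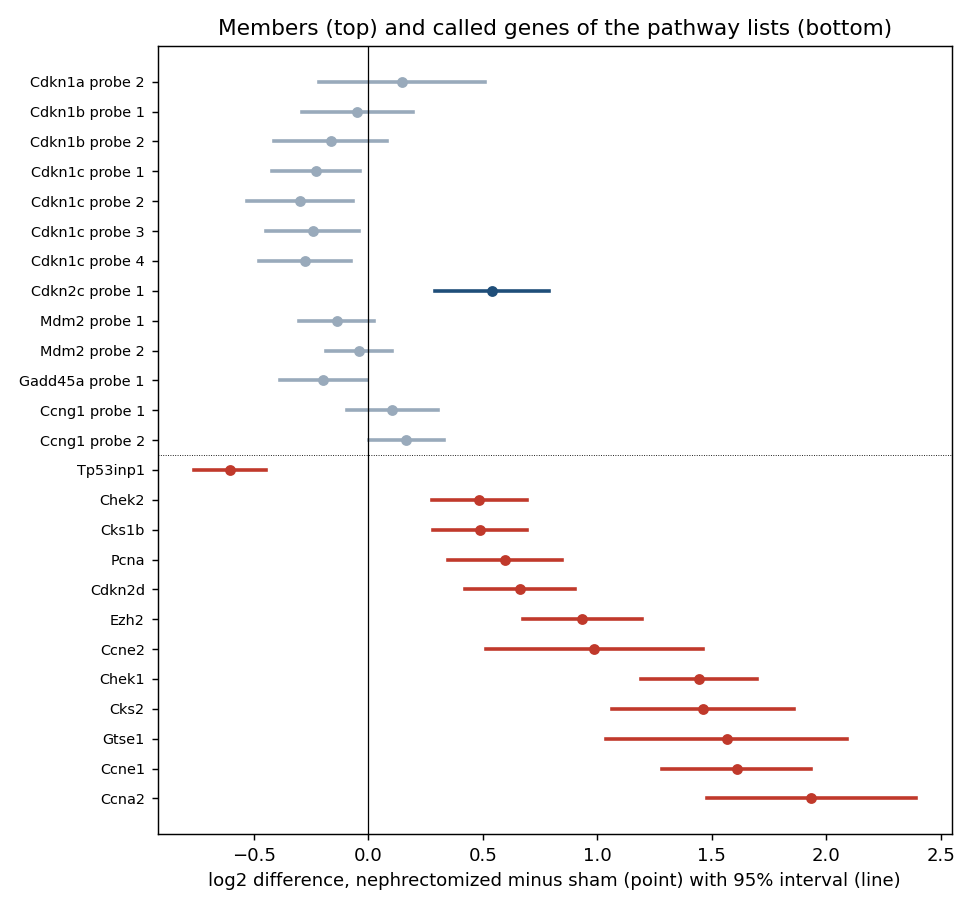
Log2 difference between nephrectomized and sham rats (horizontal axis) for the 13 tested member probes (above the dotted line) and for 12 genes of the pathway lists that passed (below it), with 95% intervals from limma that are not adjusted for the number of probes. Dark blue marks the member that passed (Cdkn2c, 0.54), pale blue those that did not, and red the list genes, from Tp53inp1 at -0.61 to Ccna2 at 1.94.

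Across the 11 lists of pathway genes, 88 of 112 genes were tested, and 11 rose and 2 fell. Among all genes with a symbol, 2.88% passed as higher and 1.17% as lower. The lists were chosen with earlier results of these data known. Of the 11 rises in the lists, 3 (Chek1, Gtse1 and Ccne2) entered the test only because the nephrectomized group was well above background. Among genes well above background on all 8 arrays, 10 list genes passed in place of 13. The list of kinases, cyclins and Pcna that the inhibitors bind held 4 of the rises among 10 tested and no fall (median log2 difference 0.23). These were Ccne1 (3.05-fold, 2.43 to 3.83, adjusted p = 0.00114) and Ccne2 (log2 difference 0.99, adjusted p = 0.0422), the E-type cyclins of the entry into DNA synthesis, Ccna2 (3.83-fold) and Pcna (1.51-fold), the sliding clamp of DNA polymerase that the Cdkn1a protein also binds. Ccne1 read -1.59 to -1.15 in sham rats and -0.11, -0.01, 0.38 and 0.34 in nephrectomized rats 1 to 4. The second probes of Ccne2 (log2 difference 0.72, adjusted p = 0.131) and Pcna (0.72, adjusted p = 0.0742) did not pass, whereas those of Ccne1 and Ccna2 did. Pcna lost its call without any sham rat in turn and without nephrectomized rat 4 (adjusted p from 0.0525 to 0.0728), and Ccne2 without any rat but nephrectomized rat 1 (0.061 to 0.113). Ccne2 also entered the test through the nephrectomized group alone, with 1 of 4 sham rats not well above background. It lost its call with quantile normalization (adjusted p = 0.0511) and with dim probes kept in (0.14), and normexp gave a log2 difference of 0.51. The kinases Cdk2 (0.29), Cdk4 (0.17) and Cdk6 (-0.06) and the D-type cyclins Ccnd1 (-0.19), Ccnd2 (0.17) and Ccnd3 (0.07) had log2 differences that did not pass.

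The list of genes for the breakdown of the inhibitors gave 2 rises in 8 tested, with a median of -0.03. It counts Cks2, a paralog of the Skp2 cofactor Cks1b and not that cofactor itself. Cks1b, the cofactor that the ligase subunit Skp2 needs to recognise the Cdkn1b protein, was 1.40-fold higher (1.22 to 1.62, adjusted p = 0.0258). It read -1.43 to -1.22 in sham and -1.02 to -0.68 in nephrectomized rats. Its paralog Cks2 was 2.76-fold higher (adjusted p = 0.00317). Skp2 itself had a log2 difference of -0.05 with an SE of 0.33 and did not pass. Cks1b lost its call without any rat but nephrectomized rat 1 (adjusted p from 0.0522 to 0.0815).

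Of the 8 tested genes of the p53 family, its regulators and the DNA damage kinases, the 2 that rose were the checkpoint kinases. Chek1, which restrains cells during DNA replication, had a log2 difference of 1.44 (adjusted p = 0.00112), or 0.74 with normexp background correction. It entered the test through the nephrectomized group alone, with 1 of 4 sham rats not well above background, so no fold is given. It read -3.97 to -3.54 in sham and -2.34 to -2.06 in nephrectomized rats. Chek2, a kinase that acts on p53 after strand breaks, was 1.40-fold higher (adjusted p = 0.0275), a call lost when any rat other than sham rat 4 or nephrectomized rat 1 was left out (adjusted p from 0.0508 to 0.0897).

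Among 14 other p53 targets tested in growth arrest and repair, 1 rose and 1 fell, with a median log2 difference of 0.00014. Gtse1, which binds p53 and peaks in dividing cells, had a log2 difference of 1.57 (adjusted p = 0.00885), or 0.70 with normexp background correction (0.0125). It entered the test through the nephrectomized group alone, with 2 of 4 sham rats not well above background, so no fold is given. Tp53inp1, a stress-induced partner of p53, read 0.91, 0.89, 0.76 and 0.71 in sham rats 1 to 4, and 0.18, 0.30, 0.21 and 0.16 in nephrectomized rats 1 to 4. It fell to 0.657 of the sham level (0.589 to 0.733, adjusted p = 0.00275), without overlap, and kept its call without any single rat. Of the 8 targets in cell death, 0 passed. Bax, which opens the mitochondrial membrane, had the smallest p of these, with a log2 difference of 0.18 (adjusted p = 0.239).

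**Figure D3:**
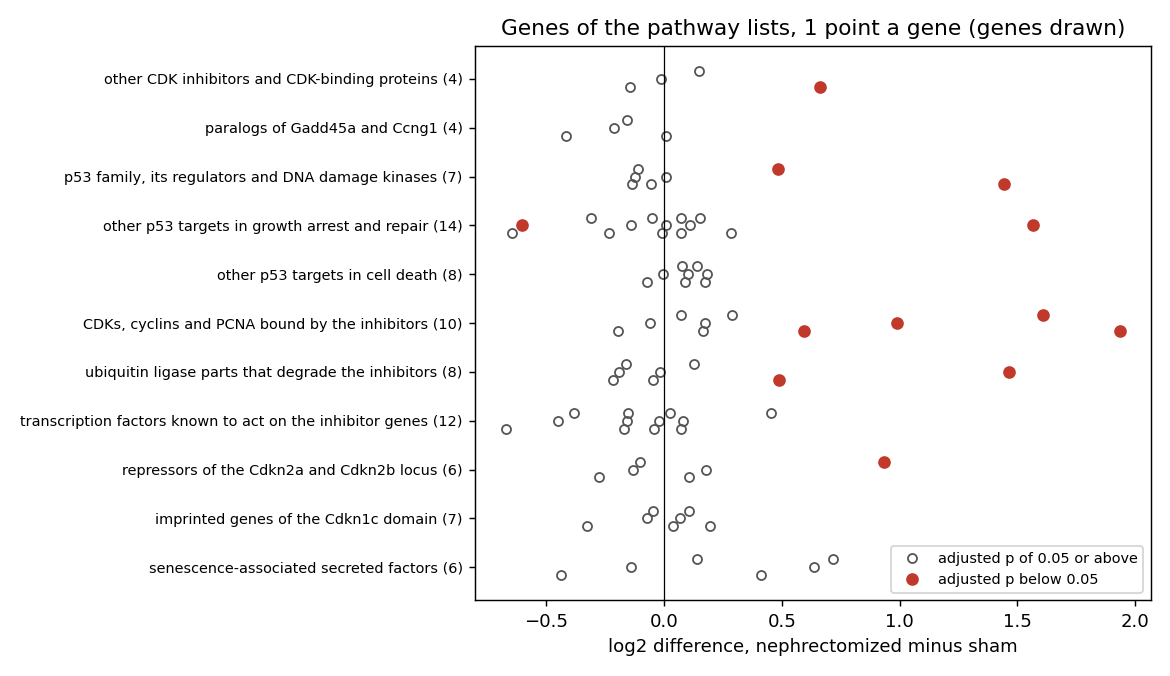
Log2 difference between nephrectomized and sham rats (horizontal axis) for 86 tested genes of the 11 pathway lists, 1 point a gene on its brightest probe, with the number drawn in brackets. Filled red points passed (11 higher, 1 lower) and open points did not. Of the 11 higher genes, 6 are in the list of kinases, cyclins and Pcna and in that of inhibitor breakdown. The latter counts Cks2, a paralog of Cks1b.

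Regulators of the inhibitor genes were examined last. Among 12 transcription factors known to act on them, 0 passed. Cebpb had the smallest p (log2 difference -0.67, adjusted p = 0.0577). Of 6 tested repressors of the Cdkn2a and Cdkn2b locus, Ezh2, the methyltransferase of the Polycomb complex, was 1.91-fold higher (1.60 to 2.29, adjusted p = 0.00367), a log2 difference of 0.93 that was 0.56 with normexp background correction. It read -2.92 to -2.53 in sham and -1.96 to -1.57 in nephrectomized rats.

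Nrip3 and Pcna were the genes whose centred values lay closest to those of Cdkn2c over the 8 arrays. The measure was the root mean square difference of the log2 values, each centred on its sham mean, over 9311 candidate genes. It was 0.058 for Nrip3 and 0.062 for Pcna, against a median of 0.433 for all candidates. Both genes were picked for these small values, and a rise of like size is enough to give a small value. Whether they are controlled together with Cdkn2c was not tested. Their log2 differences were 0.50 for Nrip3 (adjusted p = 0.0685) and 0.60 for Pcna. Nephrectomized rat 3, the highest for Cdkn2c, was also the highest of its group for 9 of the 11 pathway genes that rose, among them Ccna2, Cks2 and Pcna. These 9 include Chek1, Gtse1 and Ccne2, which entered the test through the nephrectomized group alone. The same share over all genes that rose was not worked out, and a link to Cdkn2c was not tested.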

How the data were processed

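Right kidneys of 4 sham-operated and 4 nephrectomized rats were measured on 1-colour Agilent arrays. Per the file headers, the authors extracted spot intensity with Feature Extraction 10.5.1.1, and its processed signal was used here. The deposited table of log2 values served as an alternative. Its columns have medians of -0.0171 to 0.0150 and correlate at 0.9999 with the log2 values used here once both are centred by probe, which settles scale, centring and direction. Each intensity was put on the log2 scale and the array's 75th percentile subtracted. Gene spots flagged as non-uniform, as population outliers or by hand were removed, 82 to 162 an array. The other spots of a probe were averaged, and control spots left out. Tested probes were those well above background in every rat of either group. Probes were named through RefSeq accessions, without versions.

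Every tested probe was fitted in limma 3.58.1 (R 4.3.3) on group alone, with Benjamini-Hochberg adjustment over all 23985 probes and a threshold of 0.05. The script was tested on simulated data. A gene in a list was read from its brightest probe. Named genes were all members, up to 4 list genes that passed, or with none the gene of smallest p, and the 3 genes most like Cdkn2c. Of the genes this rule and the lists hold, 3 are not reported here, but they stay in the fit and in the counts over lists. The members and lists were chosen with earlier results of these data known. The alternatives were other scalings, background correction, filters, variance settings, blocks, single slides, the deposited table, another threshold and leaving out each rat. Those of the pathway lists were chosen after the data were seen. So was a test of Cdkn2c against each other member, not reported because the same values single Cdkn2c out. The number of arrays limits the precision.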

Additional observations from a re-analysis of the deposited data

How the results depend on the processing

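The rise of Cdkn2c kept its sign under every alternative run. Leaving out 1 rat gave log2 differences of 0.45 to 0.61, with 0 to 1 members called. With dim probes kept it was 0.54 (adjusted p = 0.132), and 333 probes, 0 members and 7 list genes passed. At a threshold of 0.01 these were 298, 0 and 7. With array weights 2617 probes and 22 list genes passed. Within slide 1 the difference of Cdkn2c was 0.43 and 0 probes, 0 members and 0 list genes passed in limma (1897 probes at an unadjusted p under 0.05). Within slide 2 it was 0.65, with 151 probes, 0 members and 5 list genes. Each of these slides alone has 2 rats a group.

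With the replicate number as a block, Cdkn2c stood at 0.54 (adjusted p = 0.0588), and 327 probes, 0 members and 8 list genes passed. Same-numbered rats shared a slide. Their deviations from the group means correlated at -0.0219 to 0.111, and those of other pairs at -0.294 to 0.263. With 4 rats a group these values cannot decide whether same-numbered rats are pairs. The block also ended the calls of Cdkn2d (adjusted p = 0.0608), Pcna (0.056), Chek2 (0.0621) and Cks1b (0.0527). Leaving out 1 rat gave 386 (without sham rat 3) to 759 probes and 8 to 14 list genes. The low counts also came without nephrectomized rat 4 (391), sham rat 2 (437) and sham rat 4 (482). Signs that reversed were those of Cdkn1b (A_43_P11268), at 0.0238 within slide 1, 0.0028 without sham rat 3 and 0.0054 without sham rat 4 (-0.13 to 0.01 over the 8 fits without 1 rat), and of Mdm2 (A_44_P634946), at 0.0294 within slide 1. Lower probes were 46 of the 333 with dim probes kept, 58 of 327 with the block, 4 of 151 within slide 2 and 37 of 298 at a threshold of 0.01. Cdkn2a and Cdkn2b were limited by signal over background.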
